A study of Mus musculus with 8 samples.

Results

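Decorin, biglycan and lumican, 3 fibrillar collagens and 4 genes grouped as stellate markers were followed through nanopore direct RNA sequencing of 8 mouse livers. The method reads native poly(A) RNA without amplification. The 10 genes were set by symbol, with no measured value in the rule, from 27453 genes in the deposited counts. The choice was made with earlier results of these data known. The genes form 3 roles. The proteoglycans are Dcn, Bgn and Lum, the fibrillar collagens are Col1a1, Col1a2 and Col3a1, and the stellate markers are Sparc, Reln, Ecm1 and Colec11. All 10 were found and had reads, 9 passed the filter on low counts among 6759 tested genes, and Col1a1 did not.

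The animals were C57BL/6JN mice, an inbred strain, and each library came from the liver of 1 animal. Of the 8 libraries 4 have titles beginning with O and 4 have titles beginning with Y. In each set replicates 1 and 2 were male and replicates 3 and 4 female. The labels disagree on age. Animals with O titles have 12 weeks in the age field and those with Y titles 80 weeks, whereas the series text speaks of a young set near 2 months and an old set near 18 months. The treatment field is the same on all 8 labels and names treatment of the old animals. The groups are therefore named by title, each difference is that of O over Y titles, and no direction here is a direction of age. No other genotype, drug or diet is named in the labels.

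Stellate cells lie between the hepatocytes and the sinusoidal endothelium, where they store vitamin A and make much of the liver's matrix. Fibrillar collagens assemble into fibers that give tissue its tensile strength, and they accumulate when the liver scars. Small leucine-rich proteoglycans such as decorin, biglycan and lumican bind those fibers and set their spacing, and decorin and biglycan also bind transforming growth factor beta. Portal fibroblasts, smooth muscle and mesothelial cells make some of the same transcripts.

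Mapped reads ranged from 545171 to 2593200 per library, and the members together had from 171 to 1250 reads. A level of 3 reads, used as the floor of detection, was between 1.16 and 5.50 CPM (reads scaled to library size) when scaled by mapped reads. The shallowest library of each title was replicate 2. All 13 stellate cell markers had reads over the 8 libraries together, although Hgf, Pdgfra and Des were at 0 in up to 2 libraries each. Their summed level was 395 to 576 CPM in O-titled and 321 to 483 CPM in Y-titled livers. The members Dcn, Reln, Ecm1 and Colec11 are in this sum, so it is not separate from the members. Dcn alone gave 159 to 191 CPM of it in O-titled and 89.1 to 143 CPM in Y-titled livers. In bulk liver RNA, fewer cells of a type and less RNA per cell cannot be told apart.

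The stretches just upstream of the gene starts are shown for 4 members, picked by the position of their starts as given below. Between the title groups Bgn rose without overlap. Col3a1 (log2 -0.66) was lower, Reln (0.72) higher and Ecm1 (0.09) nearly level, each with overlapping title groups and without passing the test. RefSeq (build GRCm38.p6) had an entry for 7 of the 10 members. Printed are the 250 bases before the RefSeq start, in the direction of transcription, for members whose RefSeq start lies within 5 bases of the GENCODE start. Capitals mark matches to any of 5 motifs on either strand. The GC box was searched as GGGCGG. The core promoter box known as the TATA box was searched as TATAAA. For the site of the AP-1 factors the letters were TGANTCA. For the element bound by SMAD proteins, which carry signals of transforming growth factor beta, they were CAGAC. The CCAAT box was searched by the letters of its name. Bgn lies at chrX:73483351-73483600 on the plus strand and Col3a1 at chr1:45311288-45311537 on the plus strand. Reln lies at chr5:22344706-22344955 and Ecm1 at chr3:95739570-95739819, both on the minus strand.
Bgn: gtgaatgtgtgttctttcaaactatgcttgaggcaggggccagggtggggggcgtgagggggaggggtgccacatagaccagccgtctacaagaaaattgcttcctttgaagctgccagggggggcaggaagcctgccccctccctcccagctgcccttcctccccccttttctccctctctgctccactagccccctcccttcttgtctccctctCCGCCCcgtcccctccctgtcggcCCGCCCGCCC
Col3a1: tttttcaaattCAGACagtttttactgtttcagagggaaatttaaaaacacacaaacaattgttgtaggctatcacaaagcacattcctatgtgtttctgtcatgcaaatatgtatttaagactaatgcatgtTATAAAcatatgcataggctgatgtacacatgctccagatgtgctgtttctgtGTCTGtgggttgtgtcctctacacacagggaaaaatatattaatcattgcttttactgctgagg
Reln: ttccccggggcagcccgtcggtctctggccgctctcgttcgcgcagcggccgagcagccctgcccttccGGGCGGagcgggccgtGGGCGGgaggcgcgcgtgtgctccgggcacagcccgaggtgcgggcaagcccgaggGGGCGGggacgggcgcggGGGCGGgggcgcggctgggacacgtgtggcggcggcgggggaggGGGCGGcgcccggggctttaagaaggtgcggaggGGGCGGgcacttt
Ecm1: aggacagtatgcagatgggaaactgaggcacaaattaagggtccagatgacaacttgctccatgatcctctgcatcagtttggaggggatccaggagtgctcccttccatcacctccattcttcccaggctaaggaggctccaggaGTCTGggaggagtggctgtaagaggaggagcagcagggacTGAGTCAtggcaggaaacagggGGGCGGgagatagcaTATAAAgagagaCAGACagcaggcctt

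The Bgn stretch held 3 GC boxes, of which the last 2 overlap, and 64.4% of its bases were G or C. The Reln stretch held 6 GC boxes at 80.0% G or C. Among 32851 RefSeq windows of the same length 32.7% held a GC box. The Col3a1 stretch, at 35.2% G or C, held 1 TATA box, from 117 to 112 bases before the start, and 2 matches to the SMAD-binding element. The Ecm1 stretch, at 54.0% G or C, held 1 AP-1 site, 1 GC box, 1 TATA box and 2 SMAD-binding elements. A TATA box occurred in 12.4% of all windows, an AP-1 site in 6.75%, a SMAD-binding element in 42.2% and a CCAAT box in 33.8%. These are matches of letters in a window, and no binding was measured.

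Between the title groups, the proteoglycans decorin and biglycan were higher in O-titled livers, whereas no tested fibrillar collagen and no stellate marker passed the test in either direction. Of the 9 tested members 2 rose (Dcn and Bgn), 0 fell and 7 did not pass. Over all tested genes 4.01% passed in either direction, 2.09% higher and 1.92% lower in O-titled livers (edgeR quasi-likelihood test, adjusted p of 0.05). At an unadjusted p under 0.05 there were 5 members (Dcn, Bgn, Reln, Col3a1 and Sparc), against 16.2% of all genes. The members were chosen with earlier results of these data known, and their share of calls has no test. DESeq2 and limma voom also called Dcn and Bgn and no other member. The median difference over the 9 members was 0.09 on the log2 scale, and over all tested genes it was -0.00095.

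Decorin is a proteoglycan with a single glycosaminoglycan chain that coats collagen fibrils. Dcn (ENSMUSG00000019929, mm10 chromosome 10, 97479609 to 97518143, plus strand) stood at 174, 159, 191 and 177 CPM in O-titled replicates 1 to 4. In Y-titled replicates 1 to 4 it stood at 108, 89.1, 143 and 127 CPM. Every O-titled library lay above every Y-titled one, as was the case for 4.10% of all tested genes, while 4.62% lay the other way. The means were 175 ± 13.3 and 117 ± 23.6 CPM (SD, n = 4), a log2 difference of 0.58 (SE 0.122, approximate 95% interval to 0.82, edgeR adjusted p = 0.00956). The call held in each of the 8 fits without 1 library, with adjusted p from 0.0110 to 0.0405. It was lost when sex was left out of the model (adjusted p = 0.0502).

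Biglycan is the closest relative of decorin and carries glycosaminoglycan chains of the same kind. Bgn (ENSMUSG00000031375, chromosome X, 73483602 to 73495933, plus strand) stood at 55.0, 56.4, 74.7 and 74.2 CPM in O-titled replicates 1 to 4. In Y-titled replicates 1 to 4 it stood at 37.1, 21.8, 52.4 and 42.2 CPM, the lowest of them resting on 11 reads. The groups did not overlap, and in both of them the females lay above the males. How often such an order of the sexes occurs over all genes was not counted. The means were 65.1 ± 10.8 and 38.4 ± 12.7 CPM (SD, n = 4), a 1.64-fold difference (log2 0.71, SE 0.160, edgeR adjusted p = 0.0156). The call was lost without Y-titled replicate 4 (log2 0.67, adjusted p = 0.0784), with all libraries thinned to the shallowest (adjusted p = 0.0915) and with no term for sex (adjusted p = 0.0988).

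Lumican, which binds collagen through a core protein with keratan sulfate chains, did not follow the other 2 proteoglycans. Lum (ENSMUSG00000036446) lies on the same strand of chromosome 10 as Dcn, from 97565128 to 97572703. It stood at 6.15, 5.37, 20.8 and 13.3 CPM in O-titled replicates 1 to 4 and at 8.81, 7.92, 13.8 and 14.4 CPM in Y-titled replicates 1 to 4. The title groups overlapped, while all 4 females lay above all 4 males. How many of all tested genes lie apart by sex in this way was not counted. Between titles the log2 difference was -0.03 (SE 0.287, edgeR adjusted p = 0.994), with an approximate 95% interval from -0.59 to 0.54. Lum had 112 reads in all, against 551 for Bgn and 1558 for Dcn.

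The collagen transcripts were sparse, and none of them passed the test between titles. Col3a1 (ENSMUSG00000026043, chromosome 1, 45311538 to 45349706), which encodes the type III collagen chain, stood at 14.6, 12.1, 18.2 and 18.9 CPM in O-titled replicates 1 to 4. In Y-titled replicates 1 to 4 it stood at 36.5, 13.9, 21.1 and 22.4 CPM. Y-titled replicate 1 was the highest of all and Y-titled replicate 2 fell inside the O-titled range. The means were 16.0 ± 3.19 and 23.5 ± 9.47 CPM (SD, n = 4; log2 -0.66, SE 0.261, edgeR adjusted p = 0.195). Without Y-titled replicate 1 the log2 difference was -0.16 (adjusted p = 0.851).

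Col1a1 and Col1a2 encode the chains of type I collagen, the main fibrillar collagen of scar tissue. Col1a2 (ENSMUSG00000029661, chromosome 6, 4504814 to 4541544) had 30, 1, 11 and 14 reads in O-titled replicates 1 to 4 and 16, 7, 7 and 5 reads in Y-titled replicates 1 to 4. This amounted to 8.06 ± 4.56 and 8.71 ± 4.14 CPM (SD, n = 4; log2 0.16, SE 0.403, edgeR adjusted p = 0.910). The groups overlapped throughout, with the lowest value in O-titled replicate 2 and the highest in Y-titled replicate 2, the 2 shallowest libraries. Its sign turned without O-titled replicate 1 and without Y-titled replicate 4 (log2 -0.05 and -0.02).

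Col1a1 (ENSMUSG00000001506, chromosome 11, 94936224 to 94953042) had 12, 0, 4 and 5 reads in O-titled and 5, 3, 2 and 3 reads in Y-titled replicates 1 to 4. With 34 reads in all it fell under the count filter. Its level was 2.90 ± 2.00 against 3.40 ± 1.78 CPM (SD, n = 4), and the exact two-sided permutation test over 70 assignments gave p = 0.743, where the smallest possible p is 0.0286. The 0 reads in O-titled replicate 2 allow a level of up to 3.79 CPM of mapped reads, above the level of several other libraries. Counting intervals and floors cover counting error only.

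**Figure D1:**
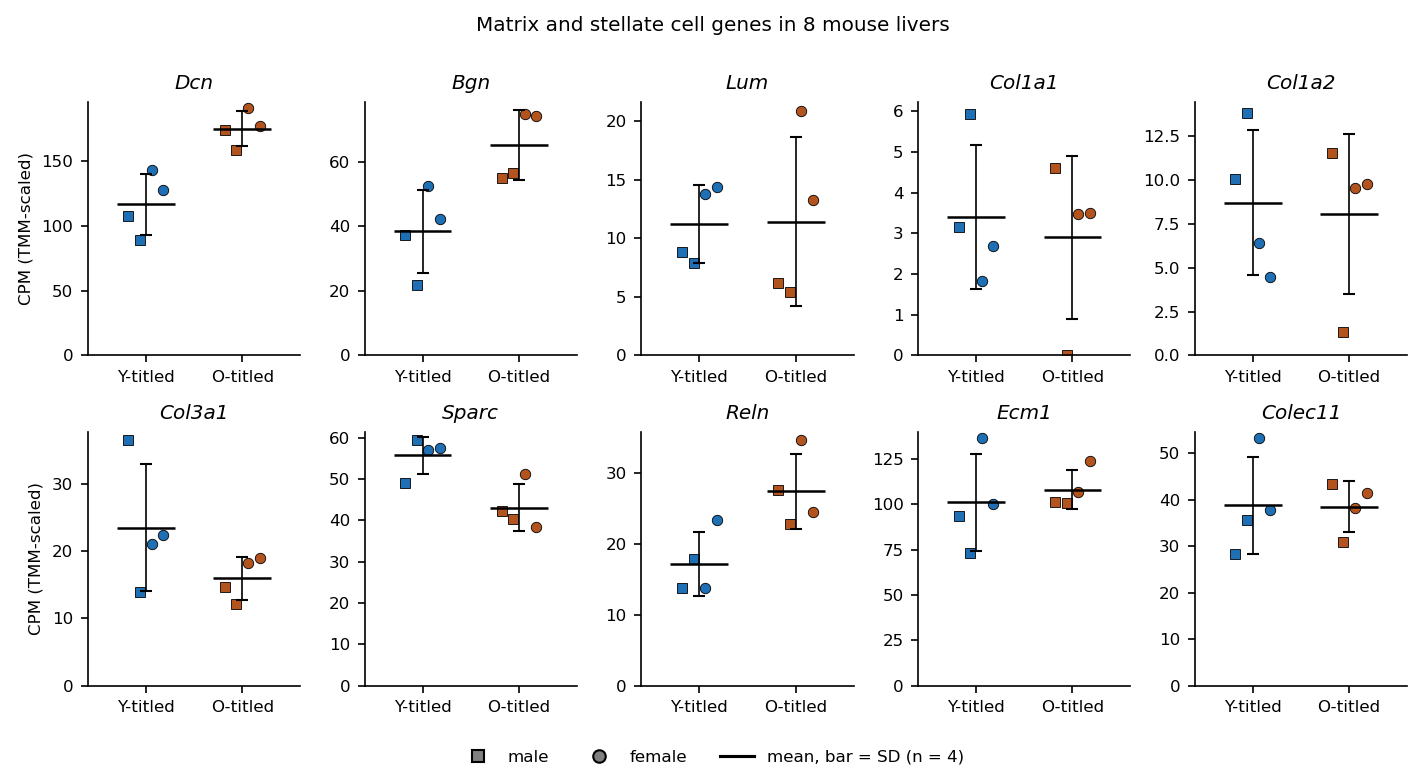
Level of each of the 10 genes in each library, in scaled CPM on a linear axis from 0, with Y-titled libraries on the left and O-titled on the right of each panel; squares are males, circles females, and the line and bar are mean and SD of 4 libraries. Dcn (159 to 191 against 89.1 to 143 CPM) and Bgn (55.0 to 74.7 against 21.8 to 52.4 CPM) separate by title. Lum separates by sex, which was not counted over all genes.

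Among the stellate markers the values went in different directions and none passed the test. Reln (ENSMUSG00000042453, chromosome 5, 21884454 to 22344702) encodes reelin, a large secreted glycoprotein best known from neuronal positioning and made in the liver by stellate cells. It stood at 27.7, 22.8, 34.7 and 24.5 CPM in O-titled replicates 1 to 4 and at 13.8, 17.8, 13.8 and 23.3 CPM in Y-titled replicates 1 to 4. Only Y-titled replicate 4 reached into the O-titled range, just above O-titled replicate 2. The means were 27.4 ± 5.26 and 17.2 ± 4.51 CPM (SD, n = 4), a 1.65-fold difference that missed the threshold (log2 0.72, SE 0.226, edgeR adjusted p = 0.0890). No alternative setting called it, with adjusted p from 0.0646 to 0.284.

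Sparc (ENSMUSG00000018593, chromosome 11, 55394500 to 55423183), a collagen-binding secreted glycoprotein that takes part in fibril assembly, stood at 42.3, 40.3, 51.2 and 38.5 CPM in O-titled replicates 1 to 4. In Y-titled replicates 1 to 4 it stood at 49.1, 59.4, 57.0 and 57.4 CPM. O-titled replicate 3 and Y-titled replicate 1 were the only libraries that crossed. The means were 43.1 ± 5.64 and 55.7 ± 4.54 CPM (SD, n = 4; log2 -0.35, SE 0.153, edgeR adjusted p = 0.253).

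Ecm1 (ENSMUSG00000028108, chromosome 3, 95734147 to 95739569), a secreted matrix protein that hepatocytes also make, stood at 101, 101, 107 and 124 CPM in O-titled against 93.8, 73.2, 137 and 101 CPM in Y-titled replicates 1 to 4. The O-titled values lay inside the range of the Y-titled ones. The means were 108 ± 10.9 and 101 ± 26.5 CPM (SD, n = 4; log2 0.09, SE 0.140, edgeR adjusted p = 0.826), with an approximate 95% interval of the difference from -0.18 to 0.37.

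Colec11 (ENSMUSG00000036655, chromosome 12, 28594173 to 28623377) encodes collectin-11, a soluble lectin that starts the lectin pathway of complement. It stood at 43.4, 30.9, 38.2 and 41.3 CPM in O-titled against 28.3, 35.6, 53.3 and 37.7 CPM in Y-titled replicates 1 to 4. The groups overlapped, and both the lowest and the highest value were Y-titled. The means were 38.5 ± 5.48 and 38.7 ± 10.5 CPM (SD, n = 4; log2 0.06, SE 0.188, edgeR adjusted p = 0.934), with an approximate 95% interval from -0.31 to 0.43.

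Set against the collagens within each library, the proteoglycans took a larger share of reads in the O-titled livers. Reads of Dcn, Bgn and Lum over reads of Col1a1, Col1a2 and Col3a1 gave ratios of 7.65, 16.4, 9.17 and 8.22 in O-titled replicates 1 to 4. The ratios were 3.09, 3.53, 7.13 and 6.21 in Y-titled replicates 1 to 4. The lowest O-titled ratio lay above the highest Y-titled one, which by itself sets the groups apart within males and within females. The mean ratio was 10.4 ± 4.08 against 4.99 ± 1.98 (SD, n = 4), and the pooled reads were 1484 over 172 and 737 over 161. These are ratios of whole reads per library, 1 read per RNA molecule, and carry no test because the genes were chosen with earlier results known. Dcn and Bgn, both called higher above, gave 1044 and 377 of the O-titled and 514 and 174 of the Y-titled proteoglycan reads. The ratios with proteoglycan reads on top are therefore not separate from those calls. How often such ratios lie apart for other genes was not counted.

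The gap between the closest libraries was within counting error. O-titled replicate 1 had 612 over 80 reads (exact 95% interval of the ratio 6.05 to 9.78), and Y-titled replicate 3 had 228 over 32 reads (4.91 to 10.7). O-titled replicate 2, with the highest ratio, had 10 collagen reads (8.69 to 34.8).

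The single collagens differed in this. Over Col3a1 reads alone, a denominator chosen after the data were seen, the ratio was 16.1, 18.2, 15.7 and 14.0 in O-titled and 4.21, 8.57, 9.91 and 8.20 in Y-titled replicates 1 to 4. Over Col1a1 and Col1a2 reads together it was 14.6, 164, 22.0 and 19.9 in O-titled and 11.6, 6.00, 25.3 and 25.6 in Y-titled replicates 1 to 4. With type I collagen the groups overlapped, and the value of 164 had 1 collagen read beneath it.

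Against the stellate markers, which had many more reads, the same proteoglycans gave tighter ratios. They were 1.10, 1.13, 1.24 and 1.16 in O-titled and 0.830, 0.638, 0.803 and 0.840 in Y-titled replicates 1 to 4. The groups did not overlap, and the means were 1.16 ± 0.0614 and 0.778 ± 0.0943 (SD, n = 4). The log2 difference was 0.58 from summed reads, to which abundant Dcn and Ecm1 contribute most, and 0.31 from the mean of log2 CPM over the members. The summed level of the 4 stellate markers was 217 ± 16.5 CPM in O-titled against 213 ± 35.8 CPM in Y-titled livers, with overlapping ranges. That of the 3 proteoglycans was 252 ± 29.6 and 166 ± 39.1 CPM and did not overlap. Sparc is not in the list of stellate cell markers by cell type, and hepatocytes also make Ecm1. The ratios to stellate markers therefore do not measure stellate cell content.

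The ratio of collagen to stellate marker reads overlapped between titles, at 0.122 ± 0.0356 in O-titled and 0.174 ± 0.0690 in Y-titled livers (SD, n = 4). Its highest value, 0.269, was in Y-titled replicate 1, the library with the most Col3a1. Dcn over Ecm1 reads was 1.63 ± 0.160 against 1.17 ± 0.0955 without overlap, whereas Bgn over Dcn reads was 0.370 ± 0.0447 against 0.321 ± 0.0533 with overlap.

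**Figure D2:**
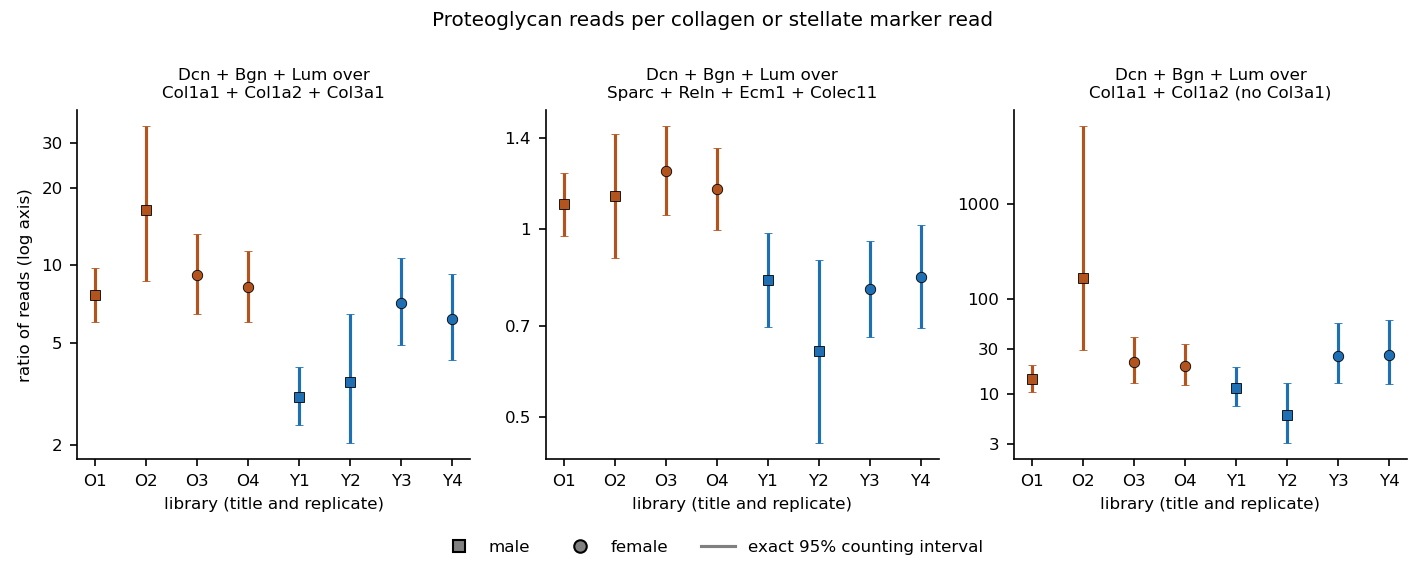
Reads of Dcn, Bgn and Lum over reads of the 3 collagens (left), of the 4 stellate markers (middle) and of Col1a1 plus Col1a2 (right) in each library, on log axes; orange points are O-titled and blue points Y-titled libraries, squares males and circles females, and bars are exact 95% counting intervals. The title groups lie apart on the left (7.65 to 16.4 against 3.09 to 7.13) and in the middle (1.10 to 1.24 against 0.638 to 0.840) but not on the right.

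Between the sexes, lumican was the only member that passed the test, higher in females. Lum was at 15.6 ± 3.54 CPM in females and 7.06 ± 1.58 CPM in males (SD, n = 4; log2 1.13, SE 0.293, edgeR adjusted p = 0.0430). Thus 1 of 9 tested members was higher in females and 0 in males, against 1.81% and 1.15% of all tested genes (2.96% in either direction). The unadjusted p was under 0.05 for 4 members (Lum, Bgn, Ecm1 and Dcn), each higher in females, against 12.3% of all genes. The call on Lum was lost without any single library, with adjusted p from 0.0685 to 0.249, and in DESeq2 (0.134) and limma voom (0.0643), which called 0 members.

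Bgn stood at 60.9 ± 16.2 CPM in females and 42.6 ± 16.4 CPM in males (SD, n = 4; log2 0.47, edgeR adjusted p = 0.156). Ecm1 stood at 117 ± 16.5 and 92.2 ± 13.1 CPM (adjusted p = 0.344) and Dcn at 160 ± 29.4 and 132 ± 40.5 CPM (adjusted p = 0.354). Of the 9 tested members 7 were higher in females, all but Col1a2 and Col3a1.

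The title difference itself was tested for a difference between the sexes and no member passed. Adjusted p ran from 0.697 to 0.998, 0 members had an unadjusted p under 0.05, and of all genes 0.385% passed and 8.46% had such a p. DESeq2 and limma voom likewise called 0 members. In males Dcn differed by log2 0.74 (SE 0.168, edgeR adjusted p = 0.0323) and in females by 0.44 (SE 0.160, adjusted p = 0.138). Bgn differed by 0.78 in males (SE 0.242, adjusted p = 0.166) and by 0.65 in females (SE 0.218, adjusted p = 0.0956). Within males 1 of 9 members passed, against 1.26% of all genes, and within females 0 of 9 passed, against 5.47%. Col3a1 had the difference farthest from 0 among members in males, -1.08 (SE 0.340, adjusted p = 0.175), and stood at -0.23 in females (SE 0.347), which did not pass.

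Reads were assigned to transcripts in the deposited counts by a procedure that the sources used here do not give. Dcn reads were assigned to 2 transcripts that are both annotated at 1758 bases with 1062 coding bases. Dcn-201 took 61.6 ± 2.03% of Dcn reads in O-titled and 59.9 ± 4.41% in Y-titled libraries (SD, n = 4). Ecm1-202 took 69.9 ± 4.03% and 66.5 ± 7.75% of Ecm1 reads, and Sparc-201 took 50.9 ± 10.8% and 50.1 ± 5.77% of Sparc reads. These shares overlapped between titles. All reads of Lum, Col1a1, Col1a2 and Col3a1 were assigned to 1 transcript, and so were nearly all of those of Bgn, Reln and Colec11.

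Reads start at the poly(A) tail, so coverage of the 5′ end falls with transcript length. The mean read covered 81.7% of the annotated length of Colec11-201, 74.3% of Dcn-201 and 64.5% of Bgn-201. It covered 31.6% of Col3a1-201, 32.9% of Col1a2-201 and 37.4% of Col1a1-201. For Reln-207, annotated at 11699 bases, it covered 14.3%, and the longest read had 9654 bases. No protein-coding gene overlaps a member in the annotation used.

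By correlation of log2 CPM over the 8 libraries, Dcn and Bgn were among the nearest genes to each other (Pearson r = 0.965) of 4155 tested genes at 20 CPM or more. These correlations describe 8 points that share 2 title groups, both sexes and one scaling, and have no test. The other genes nearest to Dcn were Atp1b3, a sodium pump subunit (0.976), and Tagln2, an actin-binding protein (0.962). Those nearest to Bgn were H2-Q6, a class I histocompatibility gene with close relatives (0.972), and Fdft1, squalene synthase (0.965). Nearest to Reln were Vim, the intermediate filament vimentin (0.932), Mrpl51 (0.930) and Hfe (0.921).

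Sparc lay nearest to the chaperone Canx (0.981), Gldc (0.967) and Pla2g12b (0.956). Lum lay nearest to Scly (0.964), Sdc1 (0.936), a cell surface proteoglycan, and Bst2 (0.935). Colec11 lay nearest to Igfbp7 (0.944), a secreted matrix protein, Tcp1 (0.927) and Apoh (0.906). Ecm1 lay nearest to Ptges2 (0.952), Kpna2 (0.951) and Nisch (0.939). Of the collagens, Col3a1 lay nearest to AU022252 (0.930), Mon2 (0.902) and Cul1 (0.896), and Col1a2 to Nudt16l1 (0.934), Cebpzos (0.930) and Jagn1 (0.925). Col1a1 and Col1a2 correlated at 0.955 with each other and at 0.275 and 0.274 with Col3a1.

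In the wider matrix and stellate cell program, 225 further genes were listed in 8 lists, and 74 of them passed the count filter. Of these 5 rose in O-titled livers, 3 fell and 66 did not pass, which is 10.8% called against 4.01% of all genes, and their median was 0.12. These lists were compiled with earlier results of these data known, and their share of calls has no test.

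Of the 9 tested proteoglycan cores 1 rose. Prg4, which encodes the boundary lubricant lubricin, stood at 48.5 ± 12.5 CPM in O-titled against 23.2 ± 6.61 CPM in Y-titled livers (SD, n = 4). Every O-titled library lay above the highest Y-titled one at 32.3 CPM (log2 1.02, SE 0.202, edgeR adjusted p = 0.00642), and the call held without each single library. It was lost with all libraries thinned to the shallowest (adjusted p = 0.0629). The syndecans, which are cell surface proteoglycans, were the most abundant of the list. Sdc4 was at 204 ± 23.3 against 269 ± 36.2 CPM (edgeR adjusted p = 0.0863), with every O-titled library below every Y-titled one. Sdc1 was at 193 ± 52.5 against 179 ± 15.9 CPM (adjusted p = 0.809). The 25 listed cores summed to 720 ± 86.6 CPM in O-titled against 752 ± 52.6 CPM in Y-titled livers, with overlapping ranges.

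Of the 4 other tested collagens 1 fell. Col4a1, a basement membrane collagen chain, stood at 11.9, 5.37, 9.55 and 9.10 CPM in O-titled against 17.6, 13.9, 26.6 and 20.6 CPM in Y-titled replicates 1 to 4 (log2 -1.02, SE 0.270, edgeR adjusted p = 0.0385). The groups lay apart, but the call was lost in 6 of 8 fits without 1 library, all but those without O-titled replicate 1 and Y-titled replicate 2 (adjusted p up to 0.161). It was also lost in DESeq2 (0.0880), with no term for sex (0.0594) and without both shallowest libraries (0.0616). Col18a1, the source of endostatin, was at 356 ± 28.0 and 405 ± 25.2 CPM (adjusted p = 0.407), and Col14a1, a fibril-associated collagen, at 27.1 ± 7.81 and 23.3 ± 5.55 CPM (adjusted p = 0.641).

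Of the 8 tested matrix glycoproteins and laminins 1 rose between titles. Tgfbi, a secreted protein induced by transforming growth factor beta, was at 39.3 ± 6.13 against 23.7 ± 6.35 CPM (SD, n = 4; log2 0.78, edgeR adjusted p = 0.0306), without overlap. Its call was lost without O-titled replicates 1 or 4 and without Y-titled replicates 1, 2 or 4, with adjusted p up to 0.159, in DESeq2 (0.0949) and limma voom (0.0556), with no term for sex (0.0863) and without both shallowest libraries (0.0659). Vtn, vitronectin, was at 2270.0 ± 264 against 2164 ± 415 CPM (adjusted p = 0.831). Fn1, fibronectin, was at 649 ± 68.8 against 537 ± 90.5 CPM (adjusted p = 0.175). Nid1, the basement membrane protein nidogen, was higher in females (log2 1.16, adjusted p = 0.0469), a call lost without any single library (adjusted p from 0.0596 to 0.230).

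No gene of collagen processing and matrix turnover passed among 11 tested, and DESeq2 and limma voom called 0. An unadjusted p under 0.05 was found for 2 of the 11, against 16.2% of all genes. P4hb, a subunit of the collagen prolyl hydroxylase, was at 856 ± 52.6 against 803 ± 71.7 CPM (edgeR adjusted p = 0.719). Tgm2, a crosslinking transglutaminase, was at 82.7 ± 26.3 against 68.2 ± 19.0 CPM (adjusted p = 0.407). In the transforming growth factor beta pathway 0 of 12 passed, and DESeq2 and limma voom called 0. Of these 12, 2 had an unadjusted p under 0.05, against the same 16.2% of all genes. Its most abundant members were the inhibitors of DNA binding Id2, at 135 ± 33.2 against 203 ± 36.8 CPM, and Id3, at 78.9 ± 13.8 against 85.3 ± 28.8 CPM (adjusted p = 0.868).

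Of 10 tested genes of quiescent stellate cells 0 rose and 1 fell. An unadjusted p under 0.05 was found for 4 of them, against 16.2% of all genes. Of the 10, 7 had a log2 difference above 0, against 49.87% of all tested genes, and the median was 0.34. The gene that fell was Tmem56, at 97.0 ± 17.8 against 148 ± 15.2 CPM (SD, n = 4; log2 -0.63, SE 0.137, edgeR adjusted p = 0.0118), and it lost its call without Y-titled replicate 4 (adjusted p = 0.0700) and thinned (0.0884). Lrat, the enzyme that stores retinol as esters and a defining stellate gene, was at 14.4 against 7.26 CPM on average (adjusted p = 0.0846). The chemokine Cxcl12 was at 190 ± 40.3 against 152 ± 22.6 CPM (adjusted p = 0.307). The 9 stellate markers outside the members summed to 131 ± 52.8 CPM in O-titled against 107 ± 22.1 CPM in Y-titled livers, with overlapping ranges of 82.0 to 206 and 82.5 to 136 CPM.

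Of 4 tested genes of activated stellate cells, portal fibroblasts and smooth muscle 3 rose, against 2.09% of all tested genes. The list holds 22 genes, of which 18 fell under the count filter, so most of it was not tested. Gas6, a ligand of the TAM receptor kinases, stood at 49.2, 41.6, 71.2 and 123 CPM in O-titled against 26.4, 13.9, 35.8 and 31.4 CPM in Y-titled replicates 1 to 4. It did not overlap between titles (log2 1.33, SE 0.214, edgeR adjusted p = 0.00173) and kept its call without each single library. With no term for sex it lost it (adjusted p = 0.154). Gas6 was also higher in females (log2 0.89, adjusted p = 0.0281), a call lost in 5 of 8 fits without 1 library.

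Vimentin, an intermediate filament of mesenchymal cells and leukocytes, stood at 38.1, 22.8, 46.9 and 29.4 CPM in O-titled against 17.6, 15.8, 12.9 and 21.5 CPM in Y-titled replicates 1 to 4 (Vim, log2 1.04, SE 0.239, edgeR adjusted p = 0.0178). The call was lost without O-titled replicates 1 or 3 or Y-titled replicate 3 (adjusted p up to 0.0951). Lgals1, the lectin galectin-1, stood at 63.8, 98.1, 49.5 and 46.9 CPM in O-titled against 42.2, 23.8, 23.0 and 38.6 CPM in Y-titled replicates 1 to 4 (log2 0.88, SE 0.212, adjusted p = 0.0262). Its call was lost without O-titled replicate 2 or Y-titled replicates 1 or 3 (adjusted p up to 0.102), without both shallowest libraries (0.0991), in limma voom (0.0502), thinned (0.0653) and with no term for sex (0.117). The contractile genes of the same list, Acta2 and Tagln, fell under the count filter, with 15 and 71 reads in all.

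Among 16 tested receptors and lectin complement genes 0 rose and 1 fell. Mbl1, a mannose-binding lectin that like collectin-11 starts the lectin pathway, was at 223 ± 23.5 against 303 ± 35.6 CPM (SD, n = 4; log2 -0.45, edgeR adjusted p = 0.0306). The groups did not overlap, but the call was lost in 7 of 8 fits without 1 library, all but that without Y-titled replicate 2 (adjusted p up to 0.165). It was also lost in DESeq2 (0.0606), which called Egfr lower in this list instead, thinned (0.0885) and with no term for sex (0.0945). Its relative Mbl2 was at 598 ± 191 against 671 ± 144 CPM (adjusted p = 0.570) and was higher in females (log2 0.60, adjusted p = 0.0188), a call lost in 4 of 8 such fits.

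**Figure D3:**
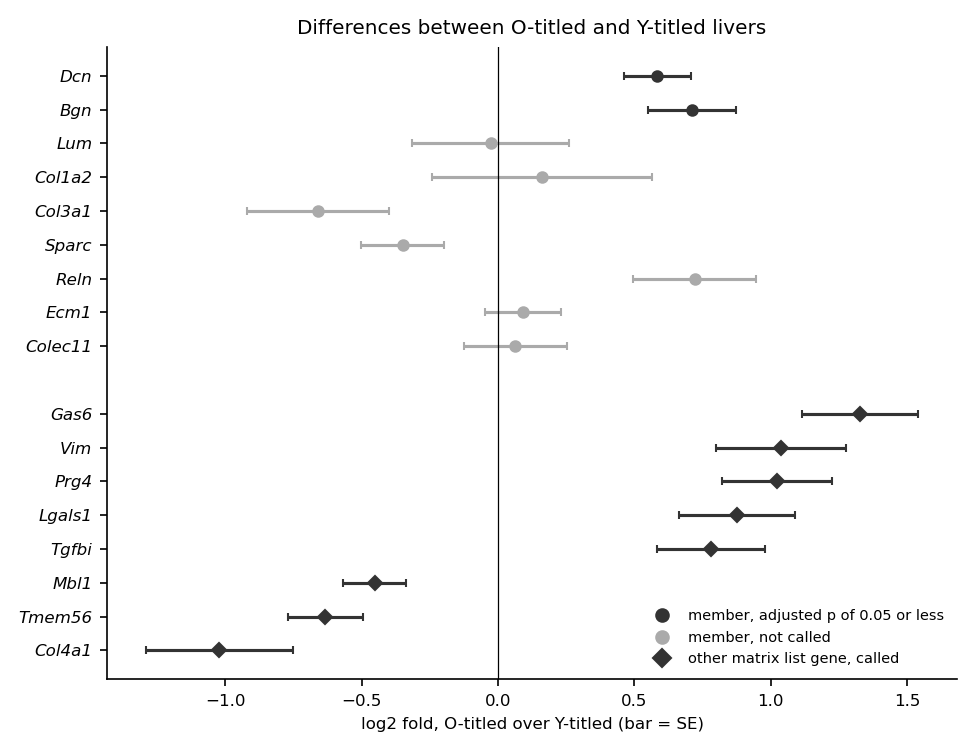
Difference between title groups on the log2 scale (O-titled over Y-titled) for the 9 tested members (circles) and the 8 other listed genes that passed the test (diamonds), with SE as bars; dark symbols have an adjusted p of 0.05 or less. Dcn (0.58) and Bgn (0.71) lie to the right with Gas6 (1.33), Vim (1.04) and Prg4 (1.02), while Col4a1 (-1.02) lies farthest to the left.

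Markers of other liver cells were summed beside these results. Kupffer cell and macrophage markers summed to 575 to 1550 CPM in O-titled and 685 to 820 CPM in Y-titled livers. All 11 tested were higher on average in O-titled livers, as were 49.87% of all tested genes, and the median log2 of the 11 was 0.49. An unadjusted p under 0.05 was found for 5 of them, against 16.2% of all genes. Of the 11, edgeR and limma voom called 0 and DESeq2 called 1 (Lyz2). Without the 2 shallowest libraries, an alternative added after seeing the data, edgeR called 8 of 12 higher in O-titled livers (C1qa, C1qb, C1qc, Cd5l, Cd68, Lyz2, Marco and Timd4), where 162 of all 7258 tested genes were called higher. O-titled replicate 2, one of the 2 shallowest libraries, had the lowest macrophage sum of all 8. The part of macrophage RNA in the results on Dcn, Bgn, Vim, Lgals1 and Gas6 was not tested.

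Portal fibroblast and smooth muscle markers were near the floor, at 10.7 to 31.3 CPM for 10 genes together in O-titled and 12.9 to 15.8 CPM in Y-titled livers, and 0 of the 10 passed the count filter. Mesothelial markers summed to 4.90 to 10.7 and 2.52 to 10.8 CPM over 5 genes. Sinusoidal endothelial markers summed to 371 to 468 and 293 to 446 CPM, and 1 of 11 tested rose, the Fc receptor gene Fcgr2b (68.5 ± 9.01 against 45.0 ± 15.1 CPM, edgeR adjusted p = 0.0490). DESeq2, limma voom and the fit without the 2 shallowest libraries called 0 of the 11. Over all tested genes 2.09% rose. Of the 11, 7 had a log2 difference above 0, against 49.87% of all tested genes, and the median was 0.10. Lyve1, the 1 marker of this list under the count filter, went the other way on 57 reads and had no test. It stood at 3.08, 4.03, 3.47 and 3.50 CPM in O-titled and 8.81, 9.90, 11.0 and 5.39 CPM in Y-titled replicates 1 to 4. Cholangiocyte markers summed to 24.2 to 42.5 and 17.8 to 45.0 CPM with Sctr at 0 in all libraries, and lymphocyte markers to 8.06 to 41.7 and 11.9 to 17.1 CPM. Hepatocyte markers summed to 81819 to 111161 and 88868 to 129841 CPM, sums in which Alb has the largest share. Of the 9 tested 7 were lower on average in O-titled livers (median log2 -0.35), whereas 49.87% of all tested genes were higher. Of the 9, 4 had an unadjusted p under 0.05, against 16.2% of all genes. Every O-titled library lay below every Y-titled one in 2 of them, against 4.62% of all genes. In edgeR, DESeq2 and limma voom 0 were called. Red blood cell markers summed to 2062 to 2764 and 1689 to 4551 CPM. The part of these cell types in the rise of Dcn and Bgn was not tested.

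**Figure D4:**
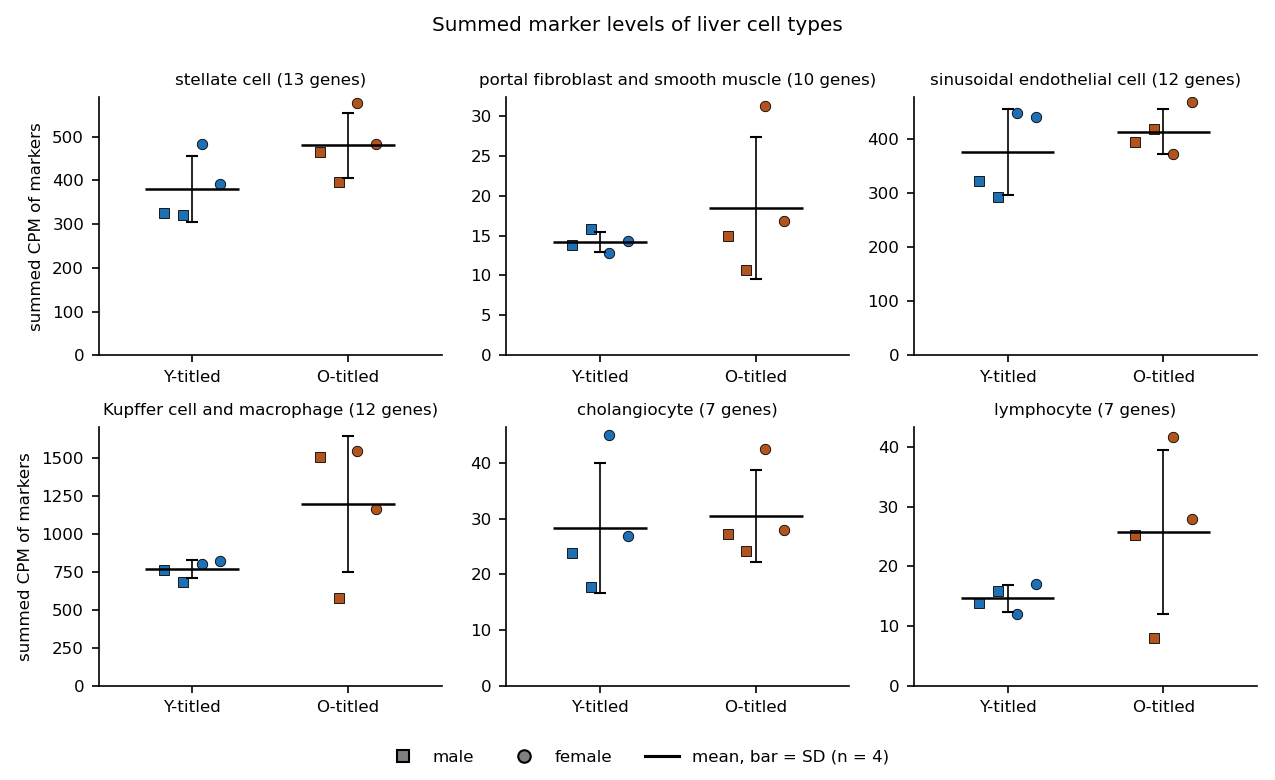
Summed level of the marker genes of 6 liver cell types in each library, in CPM on linear axes from 0, with Y-titled libraries on the left and O-titled on the right; squares are males, circles females, and the line and bar are mean and SD of 4 libraries. Every panel overlaps between titles, and the Kupffer cell and macrophage sum runs from 575 to 1550 CPM in O-titled and from 685 to 820 CPM in Y-titled livers. The stellate cell sum includes the members Dcn, Reln, Ecm1 and Colec11.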

How the data were processed

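Direct RNA sequencing reads native polyadenylated RNA, 1 read per molecule. The submitters' processing notes name minimap2 2.24, mm10 and DESeq2. The counting tool, and how reads matching more than 1 transcript were assigned, are not given in the sources used here. The deposited files hold whole-number counts of reads per transcript, not normalized, with read lengths in other columns. Members were found by symbol, positions come from GENCODE M21 on mm10, and promoter sequences from RefSeq.

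Counts were summed per gene and tested in edgeR 4.0.16 (R 4.3.3): filterByExpr at a minimum count of 10, trimmed mean of M values, robust quasi-likelihood fit of title and sex, Benjamini-Hochberg adjustment over 6759 genes. SE is the log2 fold over the root of F, and approximate intervals come from it. A fit of 4 groups gave the values within each sex and their difference. CPM are taken over reads in tested genes after scaling. Col1a1 had an exact permutation test on log2(CPM + 0.5). The pipeline was tested on simulated data. Alternatives were DESeq2 1.42.0, its size factors, limma voom 3.58.1, no count filter, thinning to 545171 reads, no sex term, a replicate block, each library left out and both shallowest left out.

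The members and lists were chosen with earlier results of these data known. Named are all members, every listed gene called (up to 5 per list and direction), the 2 most abundant tested genes of each list and the 3 genes most like each tested member. The choice of Lrat, Acta2, Tagln, Egfr, Fcgr2b, Lyve1 and the macrophage markers came after seeing their values. The files carry 8 distinct animal numbers.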

Additional observations from a re-analysis of the deposited data

How the results depend on the processing

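The higher level of Dcn kept its direction in all 16 alternatives, with log2 from 0.53 to 0.74, and that of Bgn with log2 from 0.63 to 0.82. Between titles 271 genes were called, against 600 with no count filter, 142 thinned to equal depth, 134 with no term for sex and 154 to 294 without 1 library. Between sexes 200 were called, against 401 with no count filter, 94 without the 2 shallowest libraries (an alternative added after seeing the data) and 125 to 217 without 1 library. For the title difference between sexes 26 were called, against 15 in limma voom, 100 with no count filter, 4 without the 2 shallowest and 8 to 45 without 1 library. The cause of these shifts was not tested, apart from the smaller number of reads or samples that thinning and leaving out libraries bring.

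Replicate numbers are shared across titles. Samples of the same number deviated together from their title means (r from 0.235 to 0.421), and replicate number follows sex. With sex removed r was -0.062 in males and -0.0269 in females. With 2 libraries per title and sex each value rests on a single contrast, so it cannot decide whether the numbers also mark a pairing. With the replicate block 184 genes were called between titles and 33 for the title difference between sexes. Under that block Dcn (adjusted p = 0.0289) and Bgn (0.0401) kept their calls, and Col4a1 (0.0574), Tgfbi (0.0747), Lgals1 (0.0796) and Mbl1 (0.0808) lost them.

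The mean log2 difference of the proteoglycan to collagen ratio, 1.07, ran from 0.83 to 1.27 without 1 library and from 0.86 to 1.13 in other settings. That to stellate markers, 0.58, ran from 0.49 to 0.62 without 1 library and was 0.31 with the mean of log2 CPM in place of sums. Signs turned only in members that no setting called between titles: Lum (log2 0.032 without the 2 shallowest, and -0.28 to 0.15 without 1 library), Col1a2 (-0.052 to 0.41), Colec11 (-0.10 thinned, and -0.13 to 0.24) and Col1a1 (-0.53 on the log2 scale, with -0.87 to 0.25 without 1 library). The 3 collagens had 34 to 208 reads each over all libraries and Lum had 112.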
